A study of Mus musculus with 22 samples.

Results

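The genotype by cuprizone interaction asks, gene by gene, whether microglia without Trem2 answered cuprizone differently from wild-type microglia when the rest of the diet was normal chow. It was taken as a difference of differences on the log2 scale: the cuprizone effect in Trem2(-/-) microglia (KO cuprizone minus KO control) minus the cuprizone effect in wild-type microglia (WT cuprizone minus WT control). A negative interaction means a lower response in KO, and an interaction of -1 means that the KO response was 2-fold below the WT response. The members are the 10 arrays of 22 whose titles name these conditions, and 11830 genes were tested on them.

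The study profiled microglia, the resident macrophages of the brain, sorted from perfused and digested mouse brains by CD11b, CD45 and F4/80 together, on Affymetrix gene arrays. WT control was 2 arrays from untreated wild-type mice and KO control 2 arrays from untreated Trem2 knockout mice. WT cuprizone was 3 arrays from wild-type mice and KO cuprizone 3 arrays from Trem2 knockout mice. Both had received feed with 0.2% cuprizone for 4 weeks after a lead-in on normal chow. The other 12 arrays came from mice on Covi-Ox, a tocopherol (vitamin E) mixture, or on Covi-Ox with cuprizone. These arrays entered the estimate of the spread, the filter on low values and the choice of probe sets. Of them, 6 WT arrays also served to choose a gene list. The sources used here do not give the strain, age or sex of the mice or the design of the knockout allele. The labels do not say whether replicates were separate animals, so the p-values measure only the spread between these samples, which may be technical.

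TREM2 is a surface receptor of microglia that binds lipids and lipoproteins and signals through the adaptor Tyrobp (DAP12) and the kinase Syk. Cuprizone chelates copper and kills oligodendrocytes, which leaves microglia to take up cholesterol-rich myelin debris. Microglia close to such debris are known to enter a state called disease-associated microglia (DAM), described elsewhere as an early step that does not need Trem2 and a late step, rich in lipid-handling, phagocytic and secreted products, that does.

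The Trem2 probe set had an intensity of 1294 and 1336 in WT control, 1357, 1336 and 1724 in WT cuprizone, 89.8 and 87.4 in KO control and 92.9, 96.5 and 93.0 in KO cuprizone, so that the level followed the labelled genotype on every array. The array medians lay between 36.1 and 38.6, and a level near or below them is not exact, nor is a fold taken from it. The microglial markers Tmem119, P2ry12, Cx3cr1, Csf1r and Sall1 summed to 13520 or more on each of the 10 arrays. The immediate-early genes (26, Fos and Jun among them), which are known to respond to tissue dissociation, were low on 3 arrays. WT cuprizone 3 had a mean log2 intensity of 8.44 over these genes, KO cuprizone 2 had 8.75 and KO cuprizone 3 had 8.81, against 9.68 to 9.84 on the other 7 arrays. WT cuprizone 3 was also the array with the largest values of many genes below. A fit without the 3 low arrays keeps KO cuprizone 1 as the only KO cuprizone array. Its KO effects and interactions therefore rest on that array.

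In the interaction 27 of the 11830 genes passed at a Benjamini-Hochberg adjusted p under 0.05 in limma (0.228%), 22 with a negative value (0.186%) and 5 with a positive value (0.0423%). Each interaction rests on 2, 3, 2 and 3 arrays, and errors given with ± are standard errors from the limma model. Before adjustment 1192 genes (10.1%) had a p under 0.05. Of the 27, 21 rose with cuprizone in WT, where 213 of all genes rose (1.8%), and had a smaller or no rise in KO. Genes of this group are called lost rises here, and they include genes of lipid handling, phagocytic receptors and secreted factors. In 2 further genes a WT fall (83 of all genes, 0.702%) was absent in KO, and in 4 the KO effect was the larger one. Over the 21 lost rises the median cuprizone effects were 1.82 (WT, log2) and 0.06 (KO), with a median interaction of -1.85; over all genes tested these medians were -0.02, 0.00 and 0.01. Since the interaction chose the 21 genes, these medians describe them and test nothing.

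The count of 27 depended on single arrays. It was 6 and 8 without WT control 1 and 2, 265 and 7 without KO control 1 and 2, and 14 and 15 without KO cuprizone 2 and 3. Itgax, Mmp12, Fam20c and Lgals3 passed whichever of the 10 arrays was left out, and Axl and Clec7a in 9 of the 10 fits. No called gene changed sign in any alternative. After centring each array on its median the split of negative and positive calls was 22 and 1, and after quantile normalization 22 and 9. Without KO control 1 the split turned round, with more positive than negative calls. Leaving out a control array leaves 1 array in that group. With the 10 arrays alone, which leaves the spread to be estimated from fewer samples, 4 genes passed: Mmp12, Fam20c, Lgals3 and Alcam.

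**Figure D1:**
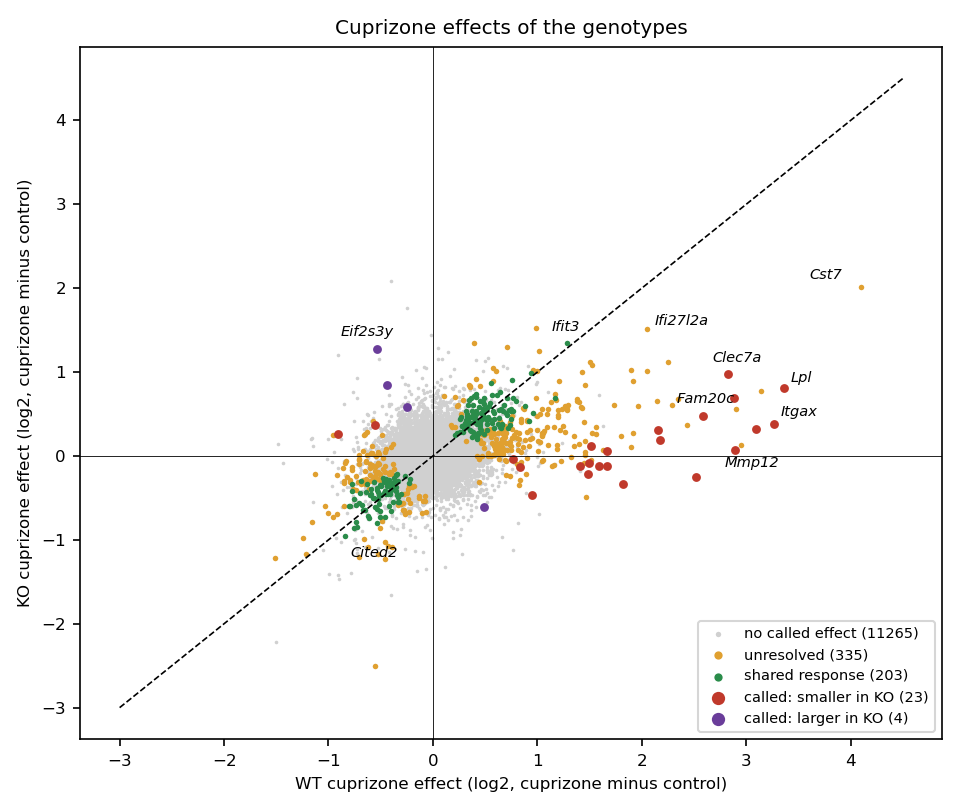
Cuprizone effect in WT (x axis, log2 cuprizone minus control) against the effect in KO (y axis, log2), 1 point per gene for 11830 genes; the dashed line marks equal effects, and colours mark the classes named in the text. Itgax, Lpl and Mmp12 lie far to the right of the line with KO effects of 0.81 or less, while Ifit3 and Cited2 lie close to it.

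Among the surface receptors, Itgax encodes the integrin CD11c, a marker of microglia around damaged myelin. Its intensity was 45.4 and 44.5 in WT control, 303, 357 and 743 in WT cuprizone, 31.2 and 31.6 in KO control and 42.1, 45.4 and 35.7 in KO cuprizone. All 3 WT cuprizone arrays lay above the other 7, and the KO cuprizone arrays stayed near the WT control level. Itgax rose 9.61-fold in WT, the KO effect was 1.30-fold (log2 0.38, 95% interval -0.15 to 0.91), and the interaction was -2.88 ± 0.36 (SE; adjusted p = 0.000375).

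Clec7a encodes Dectin-1, a pattern-recognition receptor of phagocytes. Its intensity was 65.9 and 76.7 in WT control, 393, 408 and 800 in WT cuprizone, 53.4 and 48.0 in KO control and 93.6, 95.5 and 109 in KO cuprizone. The KO cuprizone arrays all lay above the KO control arrays and below every WT cuprizone array. The effect was 7.09-fold in WT and 1.96-fold in KO (log2 0.97 ± 0.21), and the interaction was -1.85 ± 0.29 (adjusted p = 0.00729). On the log2 scale the KO effect was 34.4% of the WT effect, the highest such share among the 21 lost rises.

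Axl, a receptor tyrosine kinase that binds apoptotic cells through Gas6, followed the same order. It measured 72.5 and 62.7 in WT control, 353, 401 and 876 in WT cuprizone, 58.4 and 56.9 in KO control and 85.7, 101 and 94.0 in KO cuprizone. KO cuprizone lay above KO control on all arrays, without reaching WT cuprizone. The interaction was -2.19 ± 0.34 (adjusted p = 0.00729), with a KO effect of 0.69 (95% interval 0.19 to 1.20). Olr1, the scavenger receptor for oxidised low-density lipoprotein, lay between 15.3 and 23.7 on the 7 other arrays and at 74.6, 39.8 and 43.1 in WT cuprizone (interaction -1.61 ± 0.28, adjusted p = 0.0163), so most of its levels were below the array medians. Alcam, a cell adhesion molecule, moved in opposite directions, from 33.4 and 34.1 to 59.0, 65.0 and 71.8 in WT and from 40.5 and 40.9 to 30.8, 28.2 and 29.8 in KO. Its interaction was -1.41 ± 0.23 (adjusted p = 0.00979), and it was the only one of the 21 whose KO effect had a 95% interval below 0 (-0.80 to -0.12).

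The lipid genes were led by Lpl, lipoprotein lipase, which releases fatty acids from lipoproteins. Its intensity was 55.0 and 59.6 in WT control, 420, 464 and 1046 in WT cuprizone, 25.4 and 30.3 in KO control and 45.7, 39.4 and 63.1 in KO cuprizone. KO cuprizone exceeded KO control on every array and yet overlapped WT control. The rise was 10.3-fold in WT, the KO effect was 1.75-fold, and the interaction was -2.56 ± 0.43 (adjusted p = 0.0117). Lpl lay lower in KO than in WT already on chow (-1.05), but that difference did not pass (adjusted p = 0.298).

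Gpnmb, a glycoprotein of lysosomes and phagosomes in lipid-laden macrophages, measured 29.8 and 23.8 in WT control, 144, 172 and 469 in WT cuprizone, 27.4 and 31.9 in KO control and 26.7, 50.1 and 37.5 in KO cuprizone. WT cuprizone stood apart, while the KO groups overlapped. The interaction was -2.77 ± 0.48 (adjusted p = 0.0163). Gla, the lysosomal alpha-galactosidase, went from 77.8 and 110 to 216, 230 and 369 in WT and from 131 and 140 to 156, 142 and 144 in KO (interaction -1.39 ± 0.26, adjusted p = 0.0292). Rab7b, a GTPase of late endosomes, showed an interaction of -1.71 and Ephx1, the microsomal epoxide hydrolase, one of -1.58.

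Among secreted products, Mmp12, macrophage elastase, gave the smallest error relative to its size. Its intensity was 34.0 and 35.3 in WT control, 254, 245 and 273 in WT cuprizone, 28.2 and 26.5 in KO control and 27.4, 26.8 and 32.2 in KO cuprizone. The KO groups overlapped, and all 7 arrays outside WT cuprizone lay below their array medians. The WT rise was 7.43-fold, the KO effect 0.07 (95% interval -0.24 to 0.38) and the interaction -2.82 ± 0.21 (adjusted p = 2.66e-07).

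Fam20c, a kinase of the secretory pathway that phosphorylates secreted proteins, measured 30.8 and 32.9 in WT control, 164, 198 and 214 in WT cuprizone, 32.4 and 32.9 in KO control and 51.2, 40.1 and 45.9 in KO cuprizone. Every KO cuprizone array lay above both control groups and far below WT cuprizone. Its KO effect was 0.48 (95% interval 0.21 to 0.75), 18.6% of the WT effect of 2.58, and the interaction was -2.10 ± 0.18 (adjusted p = 2.78e-06). Lgals3, galectin-3, a lectin that marks damaged lysosomes and phagocytosis, measured 74.5 and 83.1 in WT control, 307, 359 and 403 in WT cuprizone, 70.6 and 83.4 in KO control and 92.1, 83.6 and 88.2 in KO cuprizone. The KO arrays differed little from one another and from WT control. The interaction was -1.98 ± 0.20 (adjusted p = 2.15e-05).

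3 growth factors and chemokines belonged to the lost rises. Csf1, a ligand of the receptor that microglia need for survival, went from 173 and 190 to 757, 823 and 840 in WT. In KO it measured 120 and 185 before and 268, 169 and 138 under cuprizone, and these groups overlapped (interaction -1.85 ± 0.32, adjusted p = 0.0163). Igf1, a growth factor for oligodendrocyte precursors, went from 59.7 and 47.7 to 130, 134 and 278 in WT and measured 45.5 to 65.2 in all KO arrays (interaction -1.78 ± 0.33, adjusted p = 0.025). Without the 3 low arrays, which leaves 1 KO cuprizone array, the Igf1 interaction was -1.08. Cxcl16, a scavenger receptor and chemokine, had the smallest interaction of the group (-0.80 ± 0.16, adjusted p = 0.0367), with 450 to 532 in WT cuprizone against 254 and 328 in WT control and 197 to 239 in KO.

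The remaining lost rises act inside the cell or at its membranes. Bhlhe40, a transcription factor active in lipid-laden macrophages, measured 44.6, 56.6 and 177 in WT cuprizone and 9.82 to 22.7 on the other 7 arrays, below the array medians there (interaction -2.77 ± 0.55, adjusted p = 0.0373). Without the 3 arrays low in immediate-early genes, which leaves 1 KO cuprizone array, its interaction was -1.66. Capg, which caps actin filaments, measured 222, 221 and 525 in WT cuprizone against 74.8 and 93.2 in WT control and 62.4, 89.1 and 47.4 in KO cuprizone (interaction -2.15 ± 0.41, adjusted p = 0.0292). Vat1, Rai14 and Aplp2, a relative of the amyloid precursor protein, had interactions of -1.70, -1.53 and -0.97. The last of these was -0.62 without the 3 low arrays. For each of these 5 genes the WT cuprizone arrays lay above all other arrays, as they did for all 21 lost rises; of all genes tested 5.2% showed that order. WT cuprizone 3 was the highest of the 10 arrays for 19 of the 21 and for 19.5% of all genes. The choice of the 21 favours a WT cuprizone array as the highest, so nothing is read from either share.

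**Figure D2:**
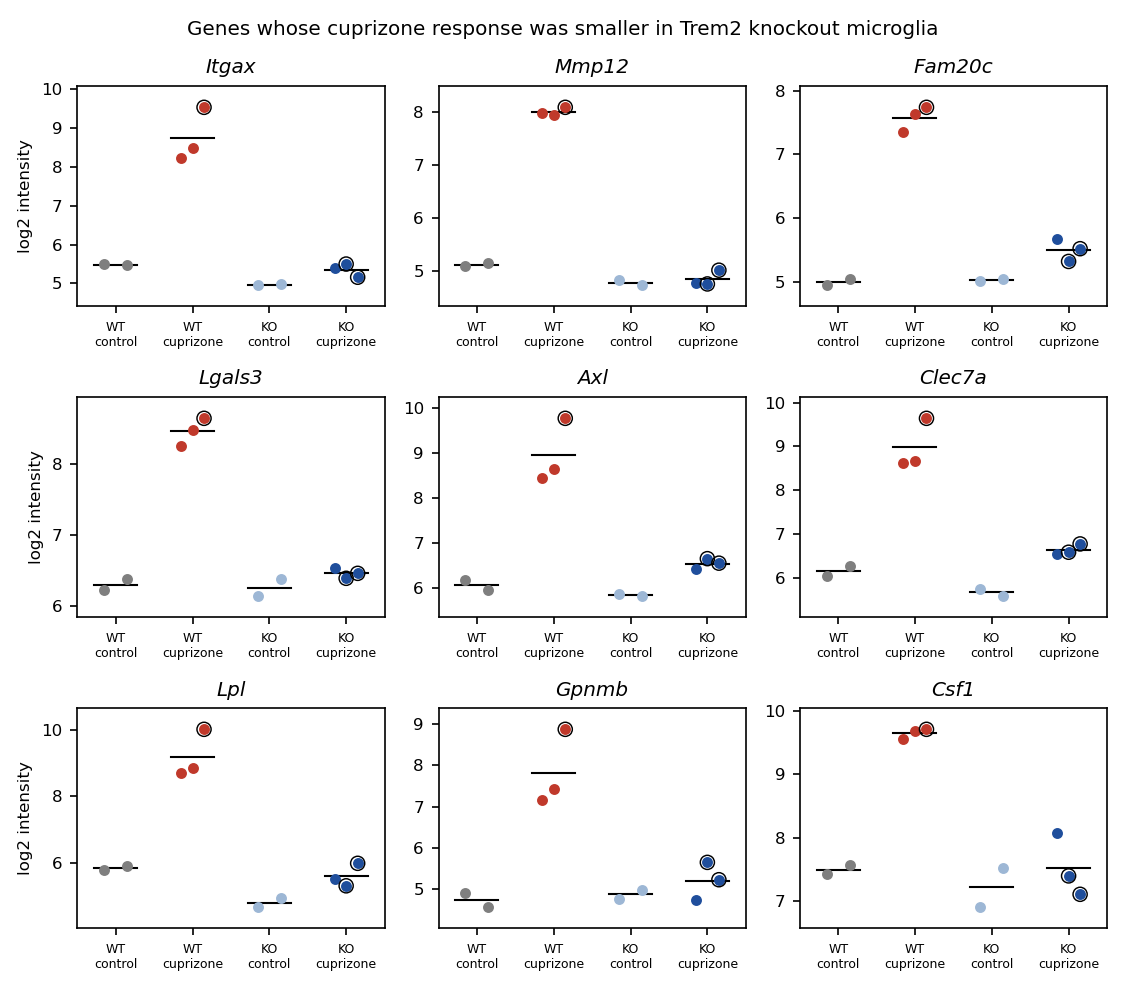
Log2 intensity of 9 genes on each of the 10 arrays, in WT control, WT cuprizone, KO control and KO cuprizone; horizontal bars are group means, and black rings mark the 3 arrays low in immediate-early genes. For all 9 genes the 3 WT cuprizone arrays lie above the other 7 arrays.

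The side on which the lost rises differ is visible in the genotype differences. On chow, where 8 of all genes passed in KO against WT (0.0676%), none of the 21 did. Under cuprizone, where 450 of all genes passed (3.8%) and 353 were lower in KO (2.98%), all 21 passed and were lower in KO. These comparisons share arrays with the interaction, so they locate the difference and do not add to it. The KO effect was positive with a 95% interval above 0 in 4 of the 21: Lpl, Axl, Fam20c and Clec7a. In the other genes the interval included 0, apart from Alcam. Mmp12, Bhlhe40, Olr1 and Rai14 passed the filter on low values only through the WT groups given cuprizone and so had to differ in this direction.

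**Figure D3:**
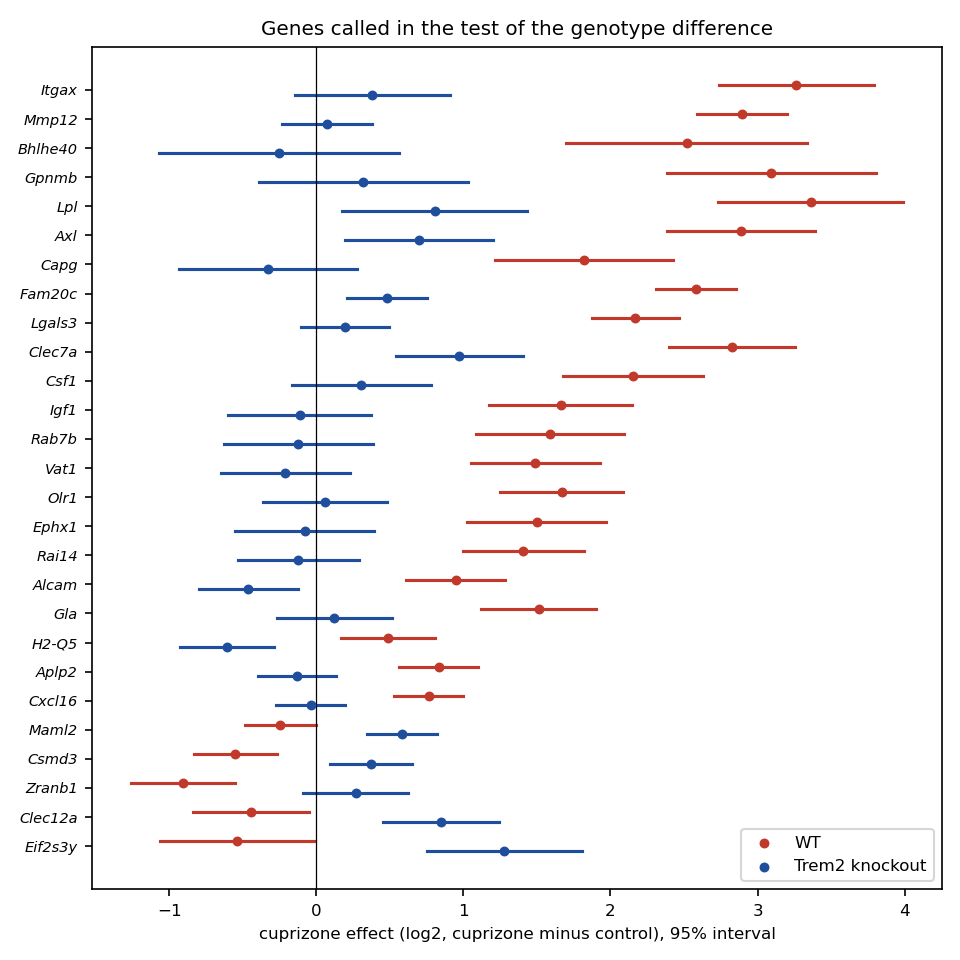
Cuprizone effect (x axis, log2 cuprizone minus control) with 95% intervals in WT (red) and KO (blue) for the 27 genes that passed in the interaction, ordered by the interaction. From Itgax down to Cxcl16 the WT intervals lie above 0, and of these genes Lpl, Axl, Fam20c and Clec7a also have KO intervals above 0.

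Since these genes moved together, their promoters were compared in RefSeq sequence of assembly GRCm38.p6, from 250 bases before to 50 bases after the annotated start. Of the 21 lost rises 17 had a promoter in that set. TGANTCA, the site of AP-1 factors such as Fos and Jun, occurred on either strand in 5 of the 17 (29.4%), against 6.22% of the 9470 tested genes with a promoter, 8.97% of all 27025 promoters and 9.18% of the 98 promoters of genes that rose in both genotypes. CACGTG, the E-box that Bhlhe40 and Mitf-family factors bind, occurred in 1 of the 17 (5.88%, against 11.7% of tested genes). GAGGAAGT, a site of the myeloid factor Spi1, occurred in 2 (11.8% against 3.74%), and the interferon response element, read as GAAA, any pair of bases and GAAA again, in none of the 17 (3.64% of tested genes). With so few promoters these shares are descriptions, a match is not a bound site, and no match says only that the letters are absent from the window.

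The 4 matches to TGANTCA before the start are shown in the 250 bases upstream, read 5′ to 3′ on the strand of the gene, with the match in capitals. Itgax lies at chr7:128129300-128129549 on the plus strand, Mmp12 at chr9:7347124-7347373 on the plus strand, Olr1 at chr6:129507166-129507415 on the minus strand and Igf1 at chr10:87860861-87861110 on the plus strand. The match ends 50, 38, 54 and 31 bases before the start in that order, and in Gpnmb it lies 9 to 15 bases after it.
Itgax: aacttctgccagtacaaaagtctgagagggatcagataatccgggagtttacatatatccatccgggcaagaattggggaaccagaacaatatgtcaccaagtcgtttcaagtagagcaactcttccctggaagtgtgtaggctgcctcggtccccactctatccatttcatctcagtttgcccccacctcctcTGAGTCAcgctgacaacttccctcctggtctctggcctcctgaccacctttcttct
Mmp12: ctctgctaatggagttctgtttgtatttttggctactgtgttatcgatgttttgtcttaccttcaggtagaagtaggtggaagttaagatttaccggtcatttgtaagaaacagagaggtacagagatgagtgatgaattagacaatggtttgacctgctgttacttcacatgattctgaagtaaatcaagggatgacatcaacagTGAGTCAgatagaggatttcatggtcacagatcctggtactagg
Olr1: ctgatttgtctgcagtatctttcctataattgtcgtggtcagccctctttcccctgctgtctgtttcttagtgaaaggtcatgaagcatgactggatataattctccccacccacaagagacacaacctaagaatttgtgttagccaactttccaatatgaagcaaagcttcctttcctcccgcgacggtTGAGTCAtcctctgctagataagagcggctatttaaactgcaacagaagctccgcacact
Igf1: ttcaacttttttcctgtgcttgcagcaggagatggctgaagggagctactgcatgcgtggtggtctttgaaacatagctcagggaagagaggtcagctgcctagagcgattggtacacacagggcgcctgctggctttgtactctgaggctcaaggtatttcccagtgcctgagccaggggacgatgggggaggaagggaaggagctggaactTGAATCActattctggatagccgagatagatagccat

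Genes that departed from this pattern were few. Csmd3, a large membrane protein with complement-control repeats, and Zranb1, a deubiquitinase, fell in WT and not in KO. Csmd3 went from 574 and 514 to 348, 376 and 389 in WT and from 756 and 601 to 740, 900 and 1000 in KO (interaction 0.92 ± 0.19, adjusted p = 0.0448), and all 7 of its probe sets gave a positive value (0.58 to 1.29). Zranb1 went from 865 and 1091 to 575, 508 and 476 in WT, while KO measured 748 and 559 in control and 968, 702 and 693 under cuprizone (1.17 ± 0.24, adjusted p = 0.0448). The first gene separated WT control from WT cuprizone and overlapped in KO, and the second did likewise.

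4 genes had the larger effect in KO. Clec12a, an inhibitory lectin receptor, went from 75.4 and 61.4 to 116, 142 and 112 in KO, and from 95.9 and 121 to 85.0, 72.9 and 79.8 in WT (interaction 1.29 ± 0.27, adjusted p = 0.0465). Maml2, a coactivator of Notch, measured 216 and 195 in KO control and 280, 343 and 302 in KO cuprizone (0.83 ± 0.16, adjusted p = 0.0367), but a second, dimmer probe set of the gene gave -0.26 ± 0.25. The KO groups did not overlap for either gene, and for Maml2 the genotypes already differed on chow (-0.69, adjusted p = 0.0365) and not under cuprizone (0.14, adjusted p = 0.477).

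H2-Q5, a non-classical class I molecule whose probe set may share signal with near-identical relatives, went from 91.0 and 96.3 to 135, 140 and 120 in WT and from 105 and 119 to 67.8, 84.3 and 69.5 in KO (-1.10 ± 0.22, adjusted p = 0.0367). Eif2s3y, on the Y chromosome, had 60.1 and 72.4 in KO control, 98.0 in KO cuprizone 2 and 142 to 258 on the other 7 arrays (1.81 ± 0.36, adjusted p = 0.0367). The 2 KO control arrays were the lowest, and the genotype difference on chow was -1.96 (adjusted p = 0.0019). Kdm5d, also Y-linked, measured 5.72 (log2) in KO control 2 and 6.17 to 6.77 on the other 9 arrays, with an interaction of 0.71 (adjusted p = 0.419), and Uty lay between 6.23 and 6.54 on all 10, with 0.29 (adjusted p = 0.593). The X-linked Xist, below the filter, lay between 4.01 and 4.51 (log2) on all 10 arrays, with 4.35 and 4.22 in KO control. The part of sample composition in Eif2s3y was not tested. None of the 6 called genes that departed from the pattern passed in more than 3 of the 10 fits that leave out 1 array. The same held for Rab7b among the lost rises, and Aplp2 and Ephx1 passed in 4.

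The counterpart of the lost rises is the response that both genotypes share. The average of the WT and KO effects, which in this model is uncorrelated with the interaction, passed for 471 genes (3.98%), 294 up (2.49%) and 177 down (1.5%). A gene was counted as a shared response where its average passed, both genotypes' effects had the same sign with 95% intervals that excluded 0, and the 95% interval of the interaction lay within 2-fold, that is between -1 and 1. That left 203 genes (1.72%), 116 up (0.981%) and 87 down (0.735%). Of the other genes with a called average 20 were lost rises and 248 met neither definition. In KO alone 5 genes passed (0.0423%), so the shared class rests on the average and on unadjusted intervals rather than on a KO test.

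Shared responses were small. The shared rises had a median effect of 0.46 in both genotypes, and the shared falls had medians of -0.47 (WT) and -0.43 (KO). Among the 294 genes with a called average rise the medians were 0.67 (WT) and 0.41 (KO). The interaction was below 0 for 212 of them (72.1%, against 47.8% of all genes). Of the 294, 11 passed the filter on low values only through the WT groups given cuprizone and so had to be high there. These values are a description. Among the 177 with a called fall the medians were -0.51 and -0.42. Most of the genes left the class without KO control 2, and most did so without the 3 arrays low in immediate-early genes. Each of these fits keeps 1 array in a KO group. Once the mean of the immediate-early genes entered as a covariate 19 of the 203 genes kept the class.

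The 2 largest shared rises were interferon-induced genes, Ifit3 and Usp18. Ifit3, an antiviral effector, measured 169 and 140 in WT control, 349, 295 and 514 in WT cuprizone, 110 and 85.0 in KO control and 258, 280 and 204 in KO cuprizone. In both genotypes all cuprizone arrays lay above all control arrays. The effects were 1.29 in WT and 1.34 in KO, the average 1.32 ± 0.18 (adjusted p = 0.000385) and the interaction 0.06 ± 0.36 (95% interval -0.69 to 0.81). Without KO control 2 the KO effect was 1.16, and Ifit3 stayed in the class in 8 of the 10 fits that leave out 1 array.

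Usp18, a brake on interferon signalling, rose by 0.97 on average (interaction 0.05 ± 0.36), Xaf1 by 0.73 (-0.45 ± 0.24) and Slfn2, which maintains immune cell quiescence, by 0.93 (-0.48 ± 0.24). The intervals of the last 2 reached -0.95 and -0.98, close to the edge of the class. In the 10 fits that leave out 1 array Usp18 stayed in the class in 7, and Xaf1 and Slfn2 in 4 each. With the immediate-early covariate Usp18 and Xaf1 left the class and Slfn2 kept it. Slfn2 measured 225 and 243 against 428, 497 and 688 in WT and 208 and 161 against 274, 334 and 279 in KO. The KO cuprizone arrays were above the KO controls and below the WT cuprizone arrays.

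Smim3, a small membrane protein, stayed in the class in all 10 such fits but was undecided without the 3 arrays low in immediate-early genes. It measured 139 and 161 in WT control, 267, 222 and 275 in WT cuprizone, 99.9 and 78.5 in KO control and 192, 194 and 121 in KO cuprizone. Within each genotype the cuprizone arrays lay above the controls (WT 0.76, KO 0.90), and the interaction was 0.14 ± 0.29 (95% interval -0.46 to 0.74). Gcnt2, a glycosyltransferase, went from 96.3 and 89.5 to 142, 160 and 220 in WT and from 119 and 80.2 to 143, 159 and 141 in KO (average 0.74, interaction -0.29 ± 0.23). Cd22, an inhibitory sialic acid receptor of phagocytes, rose by 0.72 on average, with an interaction of -0.13 ± 0.26; its KO arrays went from 49.9 and 34.9 to 58.4, 71.3 and 68.6.

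Cd9, a tetraspanin counted among late DAM genes, measured 1353 and 1556 in WT control, 2244, 2424 and 2778 in WT cuprizone, 1386 and 844 in KO control and 1156, 2004 and 2290 in KO cuprizone. WT separated fully, while KO cuprizone 1 lay below KO control 1. Its interaction was -0.08 ± 0.32. The KO effect was 0.10 without the 3 arrays low in immediate-early genes, where KO cuprizone 1 is the only KO cuprizone array left. H2-Aa, a chain of class II antigen presentation, measured 740 and 920 against 1095, 963 and 1267 in WT. In KO it measured 742 and 558 against 1143, 1236 and 878. Its average effect was 0.58 and its interaction 0.32 ± 0.26. H2-Aa stayed in the class in 4 of the 10 fits that leave out 1 array. With the immediate-early covariate it left the class, as did Cd9 and Cd22.

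Among the shared falls Cited2, a transcriptional coregulator, went from 1543 and 1579 to 1131, 1101 and 533 in WT and from 1195 and 1571 to 1064, 611 and 549 in KO. The 3 lowest values were those of the 3 arrays low in immediate-early genes, and without them the effects were -0.48 in WT and -0.36 in KO. Marcksl1, a membrane-bound regulator of actin, showed the same order, with KO effects of -0.86 and -0.16 with and without these arrays. Kbtbd3 did not: it measured 34.4 and 54.5 against 25.4, 24.9 and 28.3 in WT and 50.2 and 34.5 against 20.0, 24.2 and 25.5 in KO, near or below the array medians, and its KO effect was -1.06 without the 3 arrays.

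**Figure D4:**
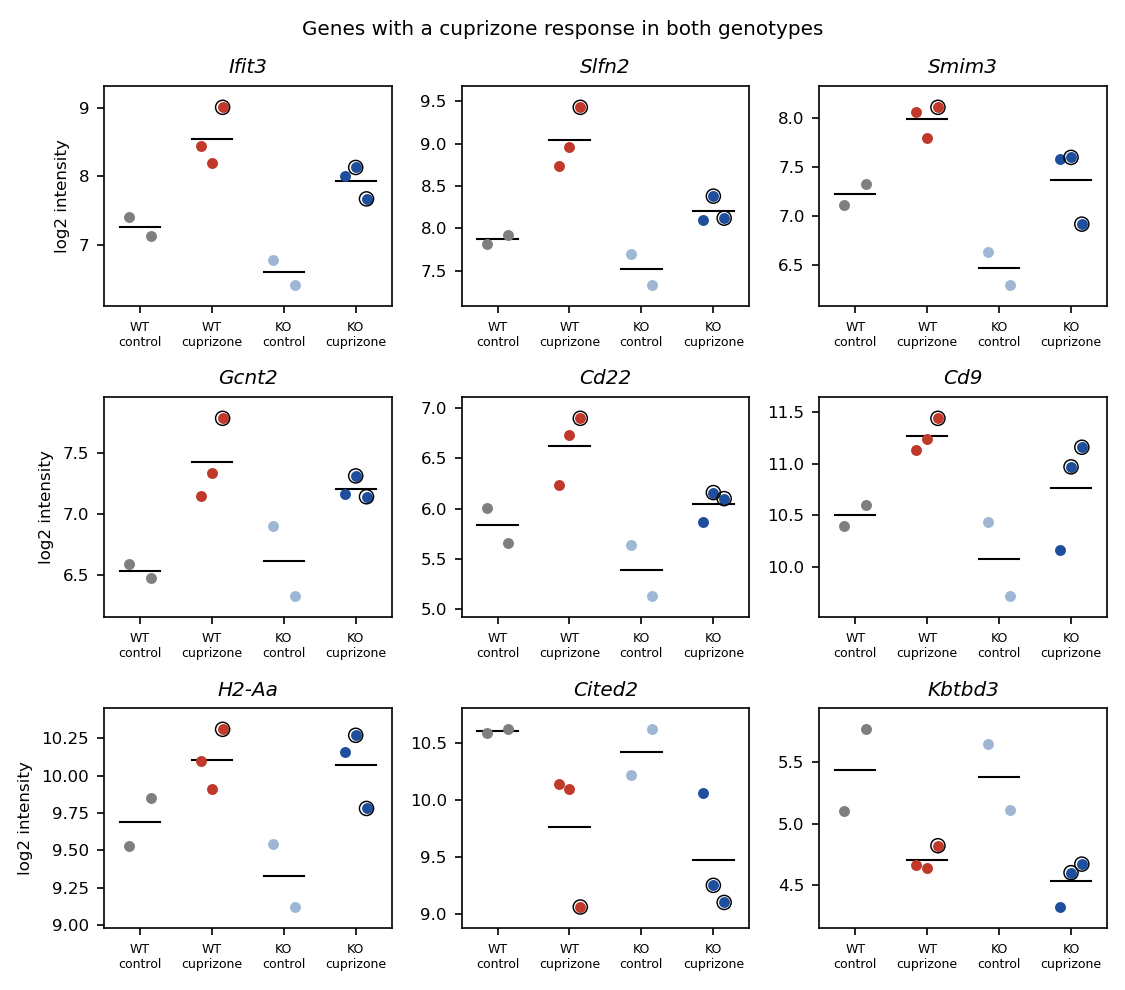
Log2 intensity on each of the 10 arrays for 7 genes counted as shared rises and for Cited2 and Kbtbd3, counted as shared falls; bars are group means, and black rings mark the 3 arrays low in immediate-early genes. In Ifit3 and Smim3 the cuprizone arrays lie above the controls within each genotype, and in Cited2 the 3 ringed arrays are the lowest.

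Between the lost rises and the shared responses stood 335 genes (2.83%) with a called average or WT effect for which neither dependence on Trem2 nor independence of it was shown, called undecided here. Cst7, cystatin F, an inhibitor of lysosomal proteases and a DAM marker, had the largest WT effect of these. It measured 73.2 and 109 in WT control, 915, 1147 and 3455 in WT cuprizone, 73.5 and 55.6 in KO control and 158, 285 and 384 in KO cuprizone. All KO cuprizone arrays lay above all controls and below all WT cuprizone arrays. The WT effect was 4.10 and the KO effect 2.02 (95% interval 1.17 to 2.86), 49.1% of it on the log2 scale, and the interaction was -2.09 ± 0.57 (adjusted p = 0.184).

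Several lipid and matrix genes had a wide spread within WT cuprizone and stayed undecided. Ch25h, cholesterol 25-hydroxylase, measured 96.3, 136 and 978 in WT cuprizone and 24.9 to 35.8 on the other 7 arrays (interaction -2.82 ± 0.78, adjusted p = 0.186). Apoc1, an apolipoprotein, measured 154, 222 and 1042 in WT cuprizone and up to 148 in KO cuprizone (-2.37 ± 0.80, adjusted p = 0.33). Fn1, fibronectin, measured 112, 145 and 1061 there (-2.33 ± 0.76, adjusted p = 0.33). In all 3 genes the highest value was that of WT cuprizone 3.

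With the mean of the immediate-early genes as a covariate 82 genes passed in the interaction, the 27 and 55 more, of which 41 were negative. Cst7 (-2.29, adjusted p = 0.00149), Ch25h (-3.11), Apoc1 (-2.68), Fn1 (-2.58), Fabp5, a fatty acid carrier (-2.13), and Chst2, a sulfotransferase (-1.77), were among them. Without the 3 low arrays, which leaves 1 KO cuprizone array, none of the 27 interactions changed sign. They were then -2.45 for Itgax, -2.85 for Mmp12, -1.85 for Fam20c and -1.81 for Lgals3. For Bhlhe40, Csf1, Igf1, Rab7b, Gla and Aplp2 they were smaller in size than in the main fit. Their values were -1.66, -1.28, -1.08, -1.17, -1.06 and -0.62 in that order. For Olr1, Ephx1, Eif2s3y and Zranb1 they were larger in size, at -1.71, -1.72, 2.32 and 1.43. The covariate was itself measured on these arrays, and its part in the result was not tested.

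The gene lists, chosen with earlier results of these data known, are described by counts and medians over their tested members; no list was tested. Late DAM genes, which carry lipid, phagocytic and secreted products, had 9 of 21 members called, all negative (background 0.186%): Itgax, Mmp12, Gpnmb, Lpl, Axl, Fam20c, Clec7a, Csf1 and Igf1. Their interaction was below 0 for 20 of the 21 (47.8% of all genes), with a median of -1.85 (WT 2.15, KO 0.37). 4 members, Cd9, Cd63, Ctsl and Hif1a, were shared responses, with interactions of -0.08, 0.10, 0.00 and -0.10, and 7 were undecided. Of all genes tested 1.72% were shared responses and 2.83% undecided, the background for such counts in every list. The late DAM median was -1.50 without WT cuprizone 3 and -1.28 without the 3 arrays low in immediate-early genes.

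Early DAM genes, among them Apoe, Tyrobp and Ctsb, had no member called of 8, and 1, Ctsb, in the shared class (average 0.47, interaction -0.09 ± 0.15). Apoe, the lipoprotein that carries cholesterol between brain cells, measured 4244 and 4588 in WT control, 6494, 6141 and 6737 in WT cuprizone, 3341 and 4123 in KO control and 4871, 3507 and 4006 in KO cuprizone. WT cuprizone stood above WT control, and the KO groups overlapped. The interaction was -0.41 ± 0.21 and did not pass (adjusted p = 0.528). TREM2 and Tyrobp signalling genes such as Syk, Plcg2 and Inpp5d had none of 21 members called, with median effects of 0.04 (WT) and -0.07 (KO).

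Homeostatic genes, which mark unstimulated microglia, had no member called of 23, yet the interaction was above 0 for 22 of them, where 52.2% of all genes were. Their median effects were -0.26 (WT) and -0.01 (KO), with a median interaction of 0.23 that was 0.04 without the 3 low arrays. The purinergic receptor P2ry12 measured 3544 and 3311 in WT control, 3041, 2779 and 2667 in WT cuprizone, 3578 and 3501 in KO control and 3334, 3650 and 3713 in KO cuprizone. The WT groups did not overlap and the KO groups did (interaction 0.29 ± 0.13, adjusted p = 0.446). Siglech, Gpr34 and P2ry13 had the values 0.41, 0.41 and 0.42.

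Of 34 lysosomal genes tested 1 was called, Gla (background 0.186%), 22 met no definition and 8 were shared rises (background 0.981%): Ctsb, Ctsh, Ctsl and Ctsz, which are cathepsin proteases, Gusb and Naglu, which are glycosidases, the proton pump subunit Atp6v1a and the tetraspanin Cd63. The list's median effects were 0.27 (WT) and 0.18 (KO), with a median interaction of -0.06 (0.05 without KO control 1). Ctsb measured 2214 and 2276 in WT control, 3257, 2974 and 3406 in WT cuprizone, 2210 and 1802 in KO control and 2444, 2846 and 2789 in KO cuprizone. Cuprizone arrays lay above control arrays in both genotypes.

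All called members of the lipid, matrix, cytokine and Mitf lists had negative interactions. Of all genes tested 0.186% were called with a negative interaction, the background for these counts. Genes of lipid uptake and storage had 2 of 13 called, Lpl and Olr1, and 1 shared rise, the receptor Lrp1 (0.49 in WT, 0.47 in KO). Cholesterol efflux genes had none of 17 called, with 5 undecided: Ch25h, Apoc1, Nceh1, Scd2 and Lipa. Cholesterol synthesis genes had none of 15 called, with median effects of 0.12 and 0.06. Matrix and adhesion genes had 3 of 20 called, Mmp12, Capg and Lgals3, with Fn1, Vim, Anxa5 and Cd44 undecided (-2.33, -1.10, -0.88 and -0.85).

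Interferon-induced genes had no member called of 24, 3 shared rises (Ifit3, Usp18 and Xaf1; background 0.981%) and 9 undecided (background 2.83%). Their median effects were 0.81 (WT) and 0.33 (KO). The interaction was below 0 for 21 of them (47.8% of all genes). Its median of -0.41 was -0.20 without WT cuprizone 3 and -0.06 without the 3 low arrays. Oasl2 (-1.57 ± 0.39, adjusted p = 0.12) and Ifit2 (-1.02 ± 0.43, adjusted p = 0.419) lay at one end and Ifit3 (0.06) and Mx2 (0.18) at the other. Class I antigen presentation genes had medians of 0.34 in WT and 0.09 in KO over 10 genes. Class II genes had 0.09 and 0.13 over 9, with Cd74 and H2-Aa among the shared rises and Cd80, a costimulatory ligand, among the shared falls.

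Glycolytic genes had no member called of 16, with medians of 0.53 in WT and 0.19 in KO. Tpi1 and Hif1a were shared rises, and Slc16a3, Pkm, Pgk1, Pgam1 and Aldoa were undecided, with interactions from -0.92 to -0.51. Oxidative phosphorylation genes had medians of 0.24 and 0.12 over 27 genes, and antioxidant genes driven by Nrf2 0.03 and -0.13 over 19; none of either list was called. Cytokines and chemokines had 1 of 23 called, Cxcl16 (background 0.186%), and Ccl5, a T cell attractant, was undecided at -1.68 ± 0.50 (adjusted p = 0.238). Regulators of the Mitf family and its partners had 1 of 11 called, Bhlhe40 (background 0.186%). Cell cycle genes had none of 17 called, with Mcm3 a shared rise, and complement and Fc receptor genes none of 13, with medians of 0.02 in both genotypes. None of 26 immediate-early and none of 15 heat shock genes was called, with median effects of -0.42 and -0.29 in WT and -0.54 and -0.68 in KO.

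**Figure D5:**
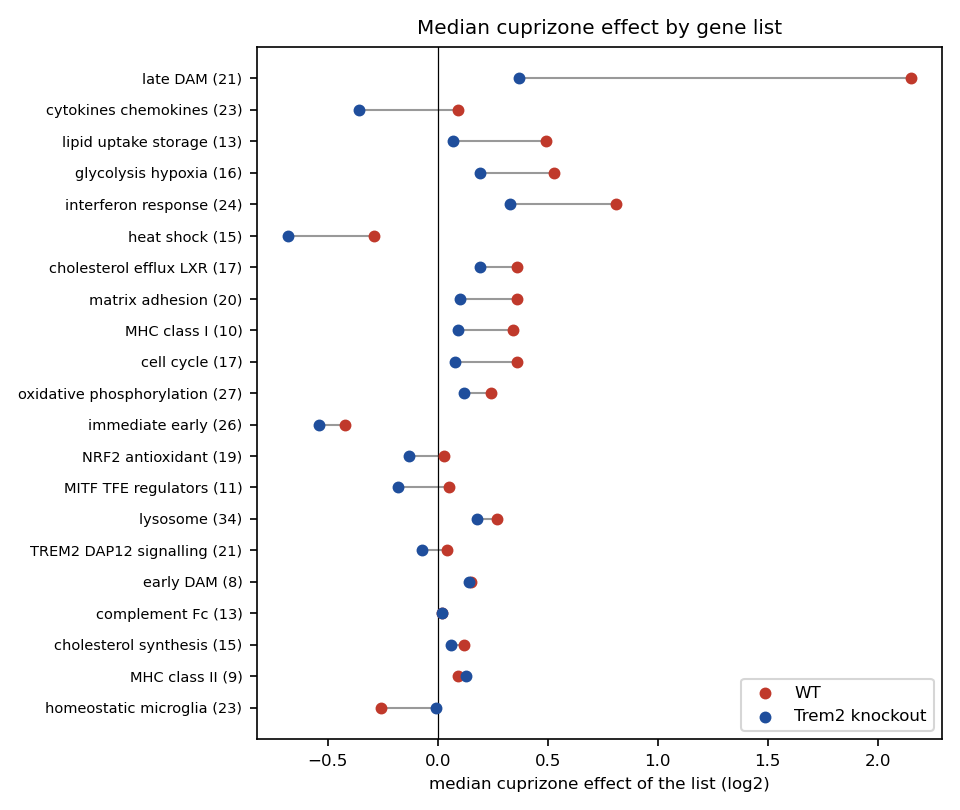
Median cuprizone effect (x axis, log2) in WT (red) and KO (blue) of each gene list, with the number of tested members in brackets, ordered by the median interaction. The genotypes lie far apart for late DAM genes (2.15 and 0.37) and close together for lysosomal genes (0.27 and 0.18).

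A further list was chosen by a contrast that uses none of the 10 arrays. Its spread, the filter on low values and the choice of probe set rest on all 22 arrays, so it is not fully independent of them. It held the 550 genes (4.65% of those tested) that were higher in WT mice on Covi-Ox with cuprizone than in WT mice on Covi-Ox alone, 3 arrays each. Over these genes the chow arrays gave median effects of 0.47 in WT and 0.15 in KO and a median interaction of -0.35, below 0 for 480 genes (87.3%, against 47.8% of all genes). All 21 lost rises were among them, 46 were shared responses, 149 were undecided and 334 met no definition. Of the 550, 38 passed the filter on low values only through the WT groups given cuprizone and so had to be high there. The list was chosen on WT arrays alone, which favours genes with a larger WT than KO effect. All genes tested are therefore not a like background, and these values are a description.

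The size of the response on those other arrays separated the kinds of gene. Of 154 genes that rose at least 2-fold there, 17 were lost rises and 6 shared responses, and the chow medians were 1.13 in WT and 0.24 in KO, with 148 interactions below 0 (96.1%); 20 of the 154 passed the filter only through the WT groups given cuprizone. Of 42 genes that rose at least 4-fold, 12 were lost rises and none was shared, with medians of 1.64 and 0.15; 11 of the 42 passed the filter only in that way. Of the 396 genes that rose less than 2-fold, 4 were lost rises and 40 shared, with medians of 0.39 and 0.13. A larger effect is easier to call in the interaction and harder to place within the bound of the shared class, so these counts follow in part from the definitions. The 375 genes that fell there (3.17%) had medians of -0.24 in WT and -0.04 in KO.

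A sort on CD11b, CD45 and F4/80 together can keep other myeloid cells, while it would remove neurons, astrocytes, oligodendrocytes, endothelial cells and lymphocytes. Neutrophil markers (8 genes, among them S100a8 and S100a9) summed to 3208 and 3224 in WT control, 671 to 2346 in WT cuprizone, 1937 and 1997 in KO control and 1049 to 3285 in KO cuprizone, with a median interaction of 0.89 and none of 5 tested members called; Ly6g, Ltf and Elane were below the filter. Monocyte markers summed to 177 to 193, 147 to 187, 110 to 156 and 161 to 234 in that order, with Vcan below the filter and a median interaction of 1.12 (0.39 without KO control 2). Border macrophage markers summed to 2344 to 2444, 1316 to 1811, 1944 to 2059 and 1077 to 2366, and oligodendrocyte markers to 299 to 365, 302 to 348, 303 to 347 and 283 to 318. Of the astrocyte, neuron, endothelial, T and NK cell and B cell markers 3, 1, 3, 2 and 1 could be tested, and none was called. Flt1, a receptor of endothelial cells, measured 23.4 and 27.1 in WT control, 46.9, 51.1 and 138 in WT cuprizone and 20.8 to 26.4 on the KO arrays, with an interaction of -1.45 ± 0.41 (adjusted p = 0.222). It was -1.57 (adjusted p = 0.0229) with the immediate-early covariate and -0.95 without WT cuprizone 3. The other tested endothelial markers, Pecam1 and Cdh5, had interactions above 0 (Cdh5 0.47). Pecam1 measured 69.9 and 60.4 in WT control and 61.3, 49.6 and 55.9 in WT cuprizone. Cdh5 measured 37.7 and 31.9 in WT control and 34.4, 33.6 and 30.9 in WT cuprizone. The part of endothelial cells in the results was not tested. Neutrophil and monocyte markers had positive medians, opposite in sign to the lost rises, and their part in the results was not tested. In bulk samples such as these, fewer cells in a state and less RNA per cell cannot be told apart.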

How the data were processed

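Microglial RNA was measured on 22 arrays. The authors deposited probe set intensity on a linear scale after RMA, per the submitters' processing notes; the sources used here give no RMA version. RMA aligns array distributions, so a change in total RNA cannot be seen. Log2 was taken. Of 28098 probe sets, the 21640 listed with a single gene were kept; each gene took its brightest probe set, and 11830 of 19937 genes exceeded the 50th percentile of an array at least 2 times. Spp1 had no single-gene probe set. The array's genome build is not named; coordinates are those of RefSeq promoters (GRCm38.p6).

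One limma 3.58.1 model in R 4.3.3 held 8 group means of all 22 arrays (14 residual degrees of freedom), so the spread also rests on arrays outside the comparison. For 6 KO arrays with Covi-Ox the title and the other labels contradict each other. They entered as 2 groups, and only for the spread, the filter and the choice of probe sets. Tests were two-sided, with Benjamini-Hochberg adjustment over all genes; errors are standard errors and intervals 95%, unadjusted. The method was checked on simulated data.

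Named were all genes called in the interaction, the 10 largest shared rises and 6 largest shared falls, the 8 undecided genes with the largest WT effect, up to 3 called members or else the 2 brightest of each of 32 lists, and a fixed set around Trem2; other genes were named after their values were seen. Members and lists were chosen with earlier results of these data known. Alternatives were the replicate block, only the 10 arrays, other filters, quantile normalization, median centring, the mean of probe sets, array weights, limma with trend and robust, stricter thresholds, an immediate-early covariate and leaving out arrays. The number of arrays limits the precision.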

Additional observations from a re-analysis of the deposited data

Results flagged for a closer look

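The test of the difference itself, the limma interaction over 11830 genes, set the genotypes' cuprizone effects apart for 27 genes, and only that test brought them here. For 21 genes a WT rise was smaller or absent in KO. Their interactions on the log2 scale were -2.88 for Itgax, -2.82 for Mmp12, -2.77 for Bhlhe40, -2.77 for Gpnmb, -2.56 for Lpl, -2.19 for Axl, -2.15 for Capg, -2.10 for Fam20c, -1.98 for Lgals3, -1.85 for Clec7a and -1.85 for Csf1. They were -1.78 for Igf1, -1.71 for Rab7b, -1.70 for Vat1, -1.61 for Olr1, -1.58 for Ephx1, -1.53 for Rai14, -1.41 for Alcam, -1.39 for Gla, -0.97 for Aplp2 and -0.80 for Cxcl16. For 2 genes a WT fall was absent in KO, at 0.92 for Csmd3 and 1.17 for Zranb1. For 4 genes the KO effect was the larger one, at -1.10 for H2-Q5, 0.83 for Maml2, 1.29 for Clec12a and 1.81 for Eif2s3y. Groups of 2 or 3 arrays were not examined for outlying arrays here; the part on processing gives the counts with each array left out.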

How the results depend on the processing

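All alternatives but those named here left the count of genes called in the interaction (27) within 1.5 times, though with some different genes. It was 4 from the 10 arrays alone, 12 with array weights, 7 at an adjusted p under 0.01 and 82 with the immediate-early covariate, and it ran from 6 to 265 when 1 array was left out. Genes called in the average effect (471) numbered 22 from the 10 arrays alone, 165 with array weights, 81 at an adjusted p under 0.01, 44 at an effect of at least 1 (log2), 87 with the covariate, 110 without the 3 arrays low in immediate-early genes and 114 to 946 with 1 array left out. Shared responses (203) numbered 3, 74, 28, 1, 35 and 46 in the same order and 36 to 377 with 1 array left out, and 101 with a bound of 1.5-fold in place of 2-fold. The replicate numbers did not pair the samples: 13 pairs with the same number had correlations of -0.227 to 0.254 (median 0.015), 2 of them over 0.1. With the replicate number as a block 20 genes passed in the interaction, all of them among the 27, with 169 in the average effect and 77 shared responses. A stricter threshold lowers these counts by construction. Fits without a control array or without the 3 low arrays keep only 1 array in a group. For all alternatives but the stricter thresholds the cause was not tested. Interactions of named genes kept their side of the threshold in 2082 combinations of gene and setting. They lost a call in 210 and gained one in 21, and none changed sign while called. Of the 101 named genes 27 were called, and all 210 losses are theirs. Most of the 2082 come from genes that were not called and stayed so. With 2 arrays in each control group, an interaction had a median SE of 0.214 (log2), and levels near the array medians limit folds.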

Other observations

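Chromosome 6 held 6 of the 27 called genes (22.2%), Gpnmb, Capg, Clec7a, Olr1, Clec12a and Bhlhe40, while it held 573 of the 11830 tested genes (4.84%). Clec7a, Olr1 and Clec12a are lectin-like receptors, and Clec12a moved opposite to the other 2. This grouping was noticed after the values were seen, and it was not tested.

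With the immediate-early covariate, 55 further genes passed, 41 of them with a negative interaction. They included the cholesterol ester hydrolase Nceh1 (-1.48), the fatty acid synthesis enzyme Acaca (-1.17), the lactate transporter Slc16a3 (-1.01), the pyrophosphate transporter Ank (-1.68), the inhibitory receptor Cd72 (-1.68), the chemokines Ccl5 (-1.80) and Ccl6 (-0.96) and the interferon-induced genes Oasl2 (-1.64) and Bst2 (-1.02). In the opposite direction stood Cxcr6 (0.81), Rel, a subunit of NF-kappaB (0.81), and Bank1 (1.01). None of these passed without the covariate.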
